A study of Mus musculus with 12 samples.

Results

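The genes described here are 34 members of the glycolysis pathway and of the hypoxia response, found by their symbols in a table of 55401 genes. They run from the glucose transporter Slc2a1 through the enzymes of glycolysis to the lactate transporters (19 genes), and on to 3 switches of glycolytic flux, 5 genes of oxygen sensing and 7 targets of the hypoxia response. All 34 passed the filter on low counts, which kept 16915 genes of the table for testing. RNA came from peritoneal lavage cells (8 mL of buffered saline) of C57BL/6J mice, in 3 groups of 4 libraries that the submitters call biological replicates. The ID8-FSHR group received an intraperitoneal injection of the mouse ovarian cancer line labelled ID8 (defb29/Vegf-a) FSHR, which carries an added follicle-stimulating hormone receptor, and was sampled 7 days later. The ID8 group received the line labelled ID8 (defb29/Vegf-a), without the receptor, and was also sampled on day 7. Both lines carry the defb29 and Vegf-a modifications, and Defb29 had 423 to 1505 counts in ID8-FSHR libraries, 1032 to 1787 in ID8 libraries and 0 in all uninjected ones. The uninjected group received nothing, and no group injected without tumour cells is among these samples, so injection and tumour cells cannot be told apart. The sources used here give neither age nor sex of the mice, and they state 4000000 injected cells in one place and 5000000 in another. Each tumour group rests on 1 line, and the labels do not say whether a line is 1 clone.

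Glycolysis splits glucose into pyruvate and yields ATP without oxygen, and lactate dehydrogenase turns pyruvate into lactate so that the pathway can go on. When oxygen falls, prolyl hydroxylases stop marking the alpha subunits of the hypoxia-inducible factors (HIF) for destruction by the Vhl ubiquitin ligase, and the stabilised factors switch on glycolytic enzymes and other target genes. Activated macrophages and tumour cells are both known for high glycolysis, and a peritoneal lavage of a tumour-bearing mouse can hold both.

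Total counts per library ran from 47419608 to 64333677. The first principal component of log2 CPM (counts on a per-million-reads scale, with the TMM factors of edgeR) held 85.3% of the variance. On it, 7 tumour libraries lay at -68.7 to -60.7 and ID8-FSHR replicate 2 at -24.8, against 116 to 121 for the uninjected libraries. Fshr had 2 and 7 counts in ID8-FSHR replicates 3 and 4, 2 counts in ID8 replicate 3 and 0 elsewhere. A transgene without the counted mouse exons would not show there, so this row does not check the label. Marker genes of mesothelial and ID8 tumour cells (10 genes) summed to 1776 to 5275 CPM in ID8-FSHR, 6239 to 7927 CPM in ID8 and 21.01 to 23.8 CPM in uninjected lavages, and ID8-FSHR replicate 2 was the lowest of the tumour libraries. Markers of large peritoneal macrophages (10 genes) summed to 7976 to 13067, 12608 to 15835 and 30273 to 37872 CPM in the same order of groups, so the tumour libraries, whose cell type is labelled a cell line, are mixtures with macrophages. Gene positions below are those of the gene models on GRCm38, with overlapping exons of a gene merged. Every value below is a level in that mixture, in which fewer cells of a type and less RNA per cell cannot be told apart.

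In ID8-FSHR lavages, 20 of the 34 genes were higher and 4 lower than in uninjected lavages, and 10 did not pass the test (edgeR quasi-likelihood F test over all 12 libraries, Benjamini-Hochberg adjusted p under 0.05). Over all 16915 genes tested, 33.9% were called higher and 30.6% lower in that comparison. The members' share called higher was above that background, at 58.8%, and their share called lower was below it, at 11.8%. The members were chosen with earlier results of these data known, so shares set against the background are description only. Their median log2 fold change was 0.37, against 0.00083 over all genes tested. In ID8 lavages 14 members were higher (41.2%, against 32.7% of all genes), 6 were lower (17.6%, against 31.4%) and 14 did not pass, with a median of 0.25 against -0.025 over all genes. Between ID8-FSHR and ID8, 4 members were higher (11.8%, against 6.04%) and 2 were lower (5.88%, against 5.56%, which is near the background), with a median of 0.29 against -0.0062.

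In ID8-FSHR, 17 members lay wholly above and 3 wholly below the uninjected libraries, a lack of overlap seen for 57.0% of all genes. For ID8 this held for 14 members above and 6 below, against 62.5% of all genes. Between ID8-FSHR and ID8 it held for 4 above and 2 below, against 18.5% of all genes. In all 3 comparisons the members' share without overlap was thus close to the background. The ID8-FSHR and ID8 comparisons with uninjected mice share the 4 uninjected libraries and are not independent. Without any scaling beyond library totals, the median of all genes moved to 0.20 for ID8-FSHR and 0.17 for ID8 against uninjected, and the members called higher became 23 and 20. The genes called higher among all 16915 rose as well, from 5735 to 7097 for ID8-FSHR and from 5537 to 6907 for ID8.

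Of the 19 genes from glucose uptake to lactate export, 14 were higher and 0 lower in ID8-FSHR than in uninjected lavages (median log2 fold change 0.60). In ID8, 8 of the 19 were higher and 1 was lower (median 0.27). Pfkl, Aldoa, Pkm and Ldha, called in ID8-FSHR and not among these 8, were also called higher in ID8 with only the groups compared in the edgeR fit (adjusted p = 0.0173, 0.0046, 0.0453 and 0.0177) and with library totals. With only the groups compared, 5991 of all 16276 genes were called higher, against 5537 of 16915 in the main fit. The median of all genes was then 0.039, against -0.025. Among the other 15 genes, 6 were higher and 4 lower in ID8-FSHR, and 6 were higher and 5 lower in ID8, with medians of 0.035 and 0.012. These shares, 40.0% higher and 26.7% lower in ID8-FSHR and 40.0% and 33.3% in ID8, are near the shares of all genes given above, against which the counts of the smaller groups below are also to be read. Summed over the 19 genes, the level was 5482 ± 988 CPM in ID8-FSHR, 4221 ± 489 CPM in ID8 and 3729 ± 187 CPM in uninjected lavages (SD, n = 4 each). Libraries ranged from 4545 to 6623 CPM in ID8-FSHR, from 3629 to 4824 CPM in ID8 and from 3571 to 3985 CPM in uninjected lavages, so ID8 overlapped both other groups. With library totals ID8 ranged from 3843 to 5016 CPM, against 3295 to 3601 CPM in uninjected lavages, and these did not overlap.

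**Figure D1:**
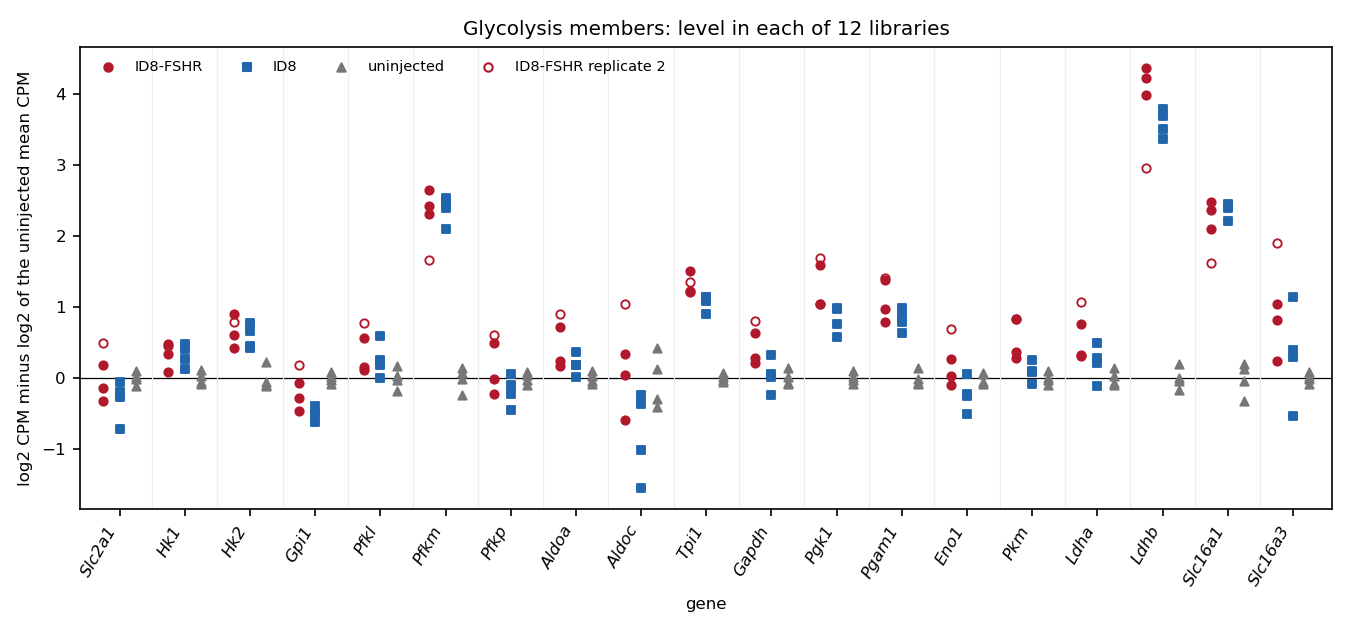
Level of each of the 19 genes from glucose uptake to lactate export in each of the 12 libraries, as log2 CPM minus the log2 of the uninjected mean CPM, with 1 point per library and ID8-FSHR replicate 2 drawn open. Ldhb, Pfkm and Slc16a1 stand far above the uninjected libraries in both tumour groups, while ID8-FSHR replicate 2 is the highest ID8-FSHR point for most other genes and the lowest for these.

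Slc2a1, the main basal glucose transporter, did not pass in any comparison. It stood at 26.00, 45.6, 29.4 and 36.7 CPM in the 4 ID8-FSHR libraries, 28.3, 31.1, 19.7 and 26.98 CPM in ID8 and 29.9, 32.8, 34.7 and 32.2 CPM in uninjected lavages. The 3 groups overlapped, and ID8-FSHR had the widest spread. The log2 fold changes were 0.09 ± 0.17 (SE, edgeR adjusted p = 0.662) for ID8-FSHR and -0.29 ± 0.17 (SE, edgeR adjusted p = 0.149) for ID8 against uninjected.

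Both hexokinases, which trap glucose in the cell by phosphorylating it, were higher in both tumour groups. Hk2 averaged 78.3 ± 11.3 CPM in ID8-FSHR, 73.02 ± 8.69 CPM in ID8 and 48.5 ± 5.63 CPM in uninjected lavages (SD, n = 4 each), with log2 fold changes of 0.69 ± 0.12 (SE, edgeR adjusted p = 0.000209) and 0.59 ± 0.12 (SE, edgeR adjusted p = 0.00072). Hk1 averaged 234 ± 28.4, 231 ± 24.7 and 184 ± 11.3 CPM in the same order, with log2 fold changes of 0.35 ± 0.10 (SE, edgeR adjusted p = 0.00769) and 0.33 ± 0.10 (SE, edgeR adjusted p = 0.0105). Per kb of transcript Hk1 was the more abundant, uninjected replicate 1 was the highest of its group for Hk2 at 56.9 CPM, and Hk2 made up 18.9% ± 0.647 of the pair in ID8-FSHR, 18.05% ± 0.520 in ID8 and 15.5% ± 1.52 in uninjected lavages.

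Of the 7 upper pathway genes, 4 were higher and 0 lower in ID8-FSHR, and 2 were higher and 1 lower in ID8. The largest change was in Pfkm (ENSMUSG00000033065.14, chromosome 15, 98092589 to 98132451, plus strand, 25 exons after merging), the muscle-type subunit of phosphofructokinase, the main control point of glycolysis. Pfkm stood at 65.1, 32.6, 55.6 and 51.3 CPM in ID8-FSHR, 54.2, 44.3, 60.02 and 57.1 CPM in ID8 and 10.9, 8.82, 10.2 and 11.5 CPM in uninjected lavages. Every tumour library lay above every uninjected one, and the lowest tumour value was that of ID8-FSHR replicate 2. On the log2 scale the changes were 2.30 ± 0.18 (SE, edgeR adjusted p = 2.2e-07) in ID8-FSHR and 2.38 ± 0.18 (SE, edgeR adjusted p = 1.61e-07) in ID8.

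The liver-type subunit Pfkl averaged 186 ± 41.2 CPM in ID8-FSHR, 167 ± 30.3 CPM in ID8 and 138 ± 13.8 CPM in uninjected lavages, and was called higher in ID8-FSHR, at 0.43 ± 0.16 (SE, edgeR adjusted p = 0.0283). That call was lost when ID8-FSHR replicate 4 or uninjected replicate 2, 3 or 4 was left out (edgeR adjusted p up to 0.0774). In ID8 it did not pass, at 0.27 ± 0.16 (SE, edgeR adjusted p = 0.143), and was called without ID8-FSHR replicate 2 (edgeR adjusted p = 0.0346). In that fit 6292 of all 17377 genes were called higher in ID8, and the median of all genes was 0.058. The platelet-type subunit Pfkp did not pass in any comparison, at 82.2 ± 22.1, 61.3 ± 8.97 and 68.9 ± 3.76 CPM. Pfkp was called higher in ID8-FSHR than in uninjected lavages with library totals (edgeR adjusted p = 0.0211). Without ID8-FSHR replicate 1 it was called higher than in uninjected lavages and than in ID8 (edgeR adjusted p = 0.032 and 0.0204). Per kb, Pfkm made up 21.1% ± 7.83 of the 3 subunits in ID8-FSHR, 24.3% ± 5.17 in ID8 and 6.28% ± 0.758 in uninjected lavages (SD, n = 4 each). Pfkl remained the most abundant subunit on that scale in each group mean.

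Triosephosphate isomerase, Tpi1 (ENSMUSG00000023456.16, chromosome 6, 124810586 to 124814296, minus strand, 4 exons after merging), interconverts the 3-carbon sugars made by aldolase and was higher in both tumour groups. It stood at 238, 258, 236 and 288 CPM in ID8-FSHR, 223, 223, 190.5 and 216 CPM in ID8 and 107, 97.99, 99.6 and 102 CPM in uninjected lavages. All 8 tumour libraries lay above the uninjected ones, and the 4 ID8-FSHR libraries lay above the 4 ID8 libraries. Fold changes on the log2 scale were 1.33 ± 0.08 (SE, edgeR adjusted p = 1.85e-08), 1.07 ± 0.08 (SE, edgeR adjusted p = 1.01e-07) and, for ID8-FSHR against ID8, 0.26 ± 0.08 (SE, edgeR adjusted p = 0.0475). Aldoa, the main aldolase, was higher in ID8-FSHR at 523 ± 130.5 CPM, against 359 ± 19.6 CPM in uninjected lavages, which on the log2 scale is 0.54 ± 0.15 (SE, edgeR adjusted p = 0.00529). In ID8 it averaged 410.1 ± 40.5 CPM and did not pass, and it was called without ID8-FSHR replicate 2 (edgeR adjusted p = 0.0494), where the median of all genes was 0.058.

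Gpi1, glucose-6-phosphate isomerase, was the 1 gene of the 19 called lower than in uninjected lavages, and it was so called in ID8. It averaged 378 ± 73.2 CPM in ID8-FSHR, 293 ± 19.3 CPM in ID8 and 416 ± 21.5 CPM in uninjected lavages, with log2 fold changes of -0.14 ± 0.11 (SE, edgeR adjusted p = 0.311) in ID8-FSHR and -0.50 ± 0.12 (SE, edgeR adjusted p = 0.00191) in ID8. Between ID8-FSHR and ID8 Gpi1 did not pass, at 0.37 ± 0.11 (SE, edgeR adjusted p = 0.0576). There it was called higher by DESeq2 (adjusted p = 0.0207). The same held with library totals or without ID8-FSHR replicate 1 (edgeR adjusted p = 0.0379 and 0.00943). The brain-type aldolase Aldoc was scarce, at 3.16 to 9.79 CPM in ID8-FSHR, 1.63 to 4.03 CPM in ID8 and 3.59 to 6.37 CPM in uninjected lavages, and did not pass in any comparison. Aldoc was called higher in ID8-FSHR than in ID8 by DESeq2 (adjusted p = 0.0272) and without ID8-FSHR replicate 1 (edgeR adjusted p = 0.0245). With the replicate number as a block it was too, and it was called lower in ID8 than in uninjected lavages (edgeR adjusted p = 0.0195 and 0.0137).

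Of the 5 lower pathway genes, 4 were higher in ID8-FSHR and 2 in ID8, with 0 lower. Pgk1 (ENSMUSG00000062070.12, chromosome X, 106187100 to 106203699, plus strand, 11 exons after merging), phosphoglycerate kinase, the first step that makes ATP, was higher in both tumour groups. It stood at 128, 200.4, 128 and 188 CPM in ID8-FSHR, 122, 124, 92.5 and 105 CPM in ID8 and 60.9, 58.7, 62.8 and 66.5 CPM in uninjected lavages. The 3 groups did not overlap. Its log2 fold changes were 1.37 ± 0.15 (SE, edgeR adjusted p = 3.87e-06) in ID8-FSHR and 0.83 ± 0.15 (SE, edgeR adjusted p = 0.000279) in ID8 against uninjected, and 0.54 ± 0.15 (SE, edgeR adjusted p = 0.0334) between the tumour groups.

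Pgam1, phosphoglycerate mutase, was likewise higher in both, at 75.9 ± 15.6 CPM in ID8-FSHR, 60.2 ± 6.21 CPM in ID8 and 33.99 ± 2.49 CPM in uninjected lavages, with log2 fold changes of 1.16 ± 0.13 (SE, edgeR adjusted p = 5.6e-06) and 0.83 ± 0.13 (SE, edgeR adjusted p = 0.000107). Gapdh, often used as a reference gene, stood at 955, 1430.3, 997 and 1274 CPM in ID8-FSHR, 857, 1030.2, 696 and 830.3 CPM in ID8 and 902, 782, 830.3 and 773 CPM in uninjected lavages. All 4 ID8-FSHR values were above the uninjected range, while ID8 overlapped both groups. Gapdh was thus called higher in ID8-FSHR, at 0.50 ± 0.14 (SE, edgeR adjusted p = 0.0072), and not in ID8, at 0.05 ± 0.14 (SE, edgeR adjusted p = 0.753).

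Pyruvate kinase, Pkm (ENSMUSG00000032294.17, chromosome 9, 59656368 to 59679375, plus strand, 17 exons after merging), makes pyruvate in the last step, and its splice forms are counted together here. Pkm stood at 568, 829.9, 604 and 829 CPM in ID8-FSHR, 503, 558, 440.2 and 497 CPM in ID8 and 504, 438, 470.3 and 460.1 CPM in uninjected lavages. The ID8-FSHR libraries lay above both other groups, which overlapped each other. On the log2 scale this was 0.60 ± 0.13 (SE, edgeR adjusted p = 0.00107) against uninjected and 0.50 ± 0.13 (SE, edgeR adjusted p = 0.0234) against ID8. Enolase, Eno1, did not pass in any comparison, at 690.0 ± 175, 498 ± 80.7 and 578 ± 32.4 CPM. With library totals Eno1 was called higher in ID8-FSHR than in uninjected lavages, at 0.44 (edgeR adjusted p = 0.0151). Against ID8 it was called higher by DESeq2 (0.46, adjusted p = 0.0257). The same held without ID8-FSHR replicate 1 or ID8 replicate 2 (edgeR adjusted p = 0.0233 and 0.045). Its near-identical copy Eno1b took 0.239% of their summed counts, and the copies of the other members took less.

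Per kb of principal transcript, Gapdh was the most abundant of the 34 genes in each group, at 819.7 CPM per kb in ID8-FSHR, 601 in ID8 and 579 in uninjected lavages. Aldoa, Eno1, Ldha and Pkm followed, between 291 and 346 CPM per kb in ID8-FSHR, between 206 and 271 in ID8, and between 192 and 285 in uninjected lavages. Among these 4, neighbours in the order differed by less than the larger SD of the pair between libraries in both tumour groups, but in uninjected lavages only Ldha and Pkm did.

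All 4 genes of lactate formation and transport were higher in ID8-FSHR and 2 of them in ID8, with the largest rise of the 34 genes in Ldhb. Lactate dehydrogenase is built from A subunits (Ldha), known to favour lactate formation, and B subunits (Ldhb), known to favour its return to pyruvate. Ldhb (ENSMUSG00000030246.12, chromosome 6, 142490249 to 142507957, minus strand, 9 exons after merging) stood at 221, 82.9, 200.2 and 170.2 CPM in ID8-FSHR, 121, 110.4, 147 and 139 CPM in ID8 and 12.3, 10.7, 9.54 and 10.4 CPM in uninjected lavages. Every tumour library lay above every uninjected one, and the lowest tumour value was again in ID8-FSHR replicate 2. In log2 units the differences were 3.97 ± 0.26 (SE, edgeR adjusted p = 3.72e-08) in ID8-FSHR and 3.59 ± 0.25 (SE, edgeR adjusted p = 7.47e-08) in ID8. Between the tumour groups the difference was 0.38 ± 0.23 (SE, edgeR adjusted p = 0.289), and without ID8-FSHR replicate 2 it was 0.62 with an adjusted p of 0.00405 in edgeR.

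Ldha (ENSMUSG00000063229.15, chromosome 7, 46841475 to 46855627, plus strand, 11 exons after merging) stood at 428, 722, 424 and 582 CPM in ID8-FSHR, 417, 481, 318 and 395 CPM in ID8 and 376, 327, 348 and 320.1 CPM in uninjected lavages. ID8-FSHR lay above the uninjected range and overlapped ID8, which overlapped the uninjected group. The log2 fold changes were 0.65 ± 0.17 (SE, edgeR adjusted p = 0.00396) in ID8-FSHR and 0.23 ± 0.17 (SE, edgeR adjusted p = 0.236) in ID8. Without ID8-FSHR replicate 2, Ldha was called higher in ID8 at 0.32 (edgeR adjusted p = 0.0468), where the median of all genes was 0.058.

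Per kb, Ldhb made up 41.1%, 13.5%, 38.99% and 28.4% of the 2 lactate dehydrogenase transcripts in the ID8-FSHR libraries, 28.3%, 23.7%, 38.6% and 32.2% in ID8 and 4.24%, 4.24%, 3.58% and 4.22% in uninjected lavages. The log2 ratio of Ldhb to Ldha was 3.21 higher in ID8-FSHR and 3.31 higher in ID8 than in uninjected lavages, with no overlap. The two-sided exact permutation p was 0.0286 for each, the smallest that 4 against 4 libraries allow, and 0.0714 after Benjamini-Hochberg adjustment over the 30 ratio tests. In that family no adjusted p was below 0.0714.

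**Figure D2:**
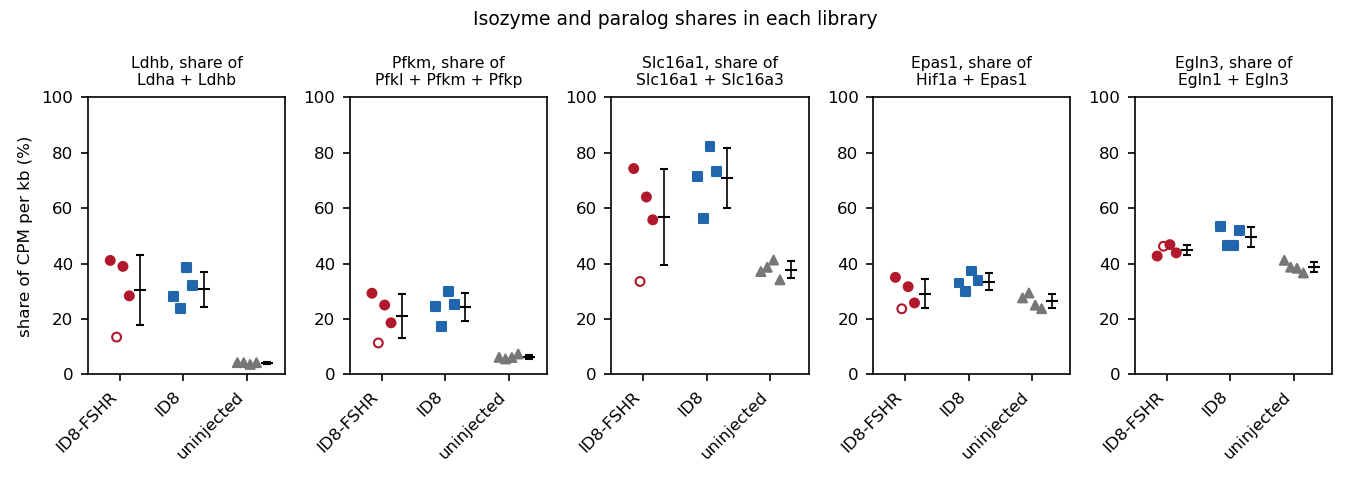
Share of 1 isozyme or paralog among the named family members, from CPM per kb of principal transcript, in percent, with 1 point per library, ID8-FSHR replicate 2 drawn open, and a bar for the mean ± SD (n = 4). Ldhb and Pfkm shares lie above every uninjected library in all 8 tumour libraries, and the Slc16a1 share lies above them except in ID8-FSHR replicate 2.

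The upstream sequences of this isozyme pair and of Pgk1 are shown because the 3 genes rose by unequal amounts in ID8-FSHR, and each was searched for the core of the hypoxia response element. Each stretch runs 5′ to 3′ from 250 bases before to 30 bases after a RefSeq transcript start on GRCm38.p6. Capitals mark ACGTG or GCGTG on either strand, so CACGT and CACGC are capitals too.
Ldha, chr7:46845554-46845833, plus strand: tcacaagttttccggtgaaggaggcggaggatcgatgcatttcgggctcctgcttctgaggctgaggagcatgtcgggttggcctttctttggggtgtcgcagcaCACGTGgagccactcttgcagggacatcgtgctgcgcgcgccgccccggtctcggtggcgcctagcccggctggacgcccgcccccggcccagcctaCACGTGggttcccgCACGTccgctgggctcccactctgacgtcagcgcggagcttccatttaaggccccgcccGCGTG
Ldhb, chr6:142507928-142508207, minus strand: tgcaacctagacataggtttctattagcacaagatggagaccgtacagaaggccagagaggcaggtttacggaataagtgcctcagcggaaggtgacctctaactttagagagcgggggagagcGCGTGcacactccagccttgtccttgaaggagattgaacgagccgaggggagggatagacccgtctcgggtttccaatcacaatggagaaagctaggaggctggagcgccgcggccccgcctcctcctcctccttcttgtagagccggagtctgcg
Pgk1, chrX:106186850-106187129, plus strand: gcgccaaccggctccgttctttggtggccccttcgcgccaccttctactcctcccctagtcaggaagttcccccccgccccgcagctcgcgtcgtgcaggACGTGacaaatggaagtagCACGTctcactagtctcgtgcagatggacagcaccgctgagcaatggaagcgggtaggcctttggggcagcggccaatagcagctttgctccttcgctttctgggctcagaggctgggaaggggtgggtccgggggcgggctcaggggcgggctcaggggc
The printed Ldha stretch held 6 matches, the Pgk1 stretch 2 and the Ldhb stretch 1, where CACGTG, an E-box that other factors also bind, counts on both strands.

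Of the lactate transporters, Slc16a1 (ENSMUSG00000032902.1, chromosome 3, 104638668 to 104658462, plus strand, 5 exons after merging), a monocarboxylate carrier that works in both directions, stood at 102, 56.2, 93.8 and 77.9 CPM in ID8-FSHR, 98.2, 84.3, 96.4 and 99.6 CPM in ID8 and 17.8, 19.9, 20.9 and 14.6 CPM in uninjected lavages. Every tumour library was above the uninjected ones, and ID8-FSHR replicate 2 was the lowest of the 8. On the log2 scale the changes were 2.17 ± 0.17 (SE, edgeR adjusted p = 1.82e-07) and 2.37 ± 0.17 (SE, edgeR adjusted p = 8.47e-08). Slc16a3, the carrier known for lactate export from glycolytic cells, ranged over 34.6 to 109 CPM in ID8-FSHR, 20.3 to 64.4 CPM in ID8 and 27.6 to 30.98 CPM in uninjected lavages. It was higher in ID8-FSHR, at 1.13 ± 0.34 (SE, edgeR adjusted p = 0.0112), and did not pass in ID8, at 0.44 ± 0.34 (SE, edgeR adjusted p = 0.27). The Slc16a1 share of the pair per kb was 56.9% ± 17.3 in ID8-FSHR, 70.7% ± 10.8 in ID8 and 37.8% ± 2.98 in uninjected lavages.

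Of the 3 switches of flux, 0 were higher and 2 lower in ID8-FSHR, and 0 were higher and 3 lower in ID8. Pfkfb3 and Pfkfb4 make the activator of phosphofructokinase, and Pdk1 holds back the use of pyruvate in mitochondria by inhibiting pyruvate dehydrogenase. Pfkfb4 (ENSMUSG00000025648.18, chromosome 9, 108991778 to 109032228, plus strand, 16 exons after merging) stood at 12.9, 29.3, 13.2 and 14.97 CPM in ID8-FSHR, 9.03, 12.4, 9.48 and 10.9 CPM in ID8 and 27.7, 26.1, 29.1 and 27.6 CPM in uninjected lavages. ID8-FSHR replicate 2 was above the uninjected range, and the other 7 tumour libraries were below it. Fold changes on the log2 scale were -0.65 ± 0.22 (SE, edgeR adjusted p = 0.0216) in ID8-FSHR, -1.40 ± 0.23 (SE, edgeR adjusted p = 0.000136) in ID8 and 0.75 ± 0.23 (SE, edgeR adjusted p = 0.0494) between them. The ID8-FSHR call against uninjected was lost without ID8-FSHR replicate 1, 3 or 4, with adjusted p of 0.0617, 0.0678 and 0.0625, while without replicate 2 the log2 fold change was -0.91. It was also lost with library totals, at -0.47 (edgeR adjusted p = 0.0665).

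Pfkfb3 fell in both groups, to 45.03 ± 1.14 CPM in ID8-FSHR and 49.7 ± 4.08 CPM in ID8, against 67.9 ± 8.59 CPM in uninjected lavages, with log2 fold changes of -0.59 ± 0.09 (SE, edgeR adjusted p = 6.89e-05) and -0.45 ± 0.09 (SE, edgeR adjusted p = 0.000632). Pdk1 averaged 61.5 ± 13.4, 49.2 ± 3.75 and 66.4 ± 3.27 CPM in the same order and fell in ID8, at -0.43 ± 0.13 (SE, edgeR adjusted p = 0.0108), a call lost with library totals (edgeR adjusted p = 0.0927). In ID8-FSHR it did not pass, at -0.11 ± 0.13 (SE, edgeR adjusted p = 0.476).

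**Figure D3:**
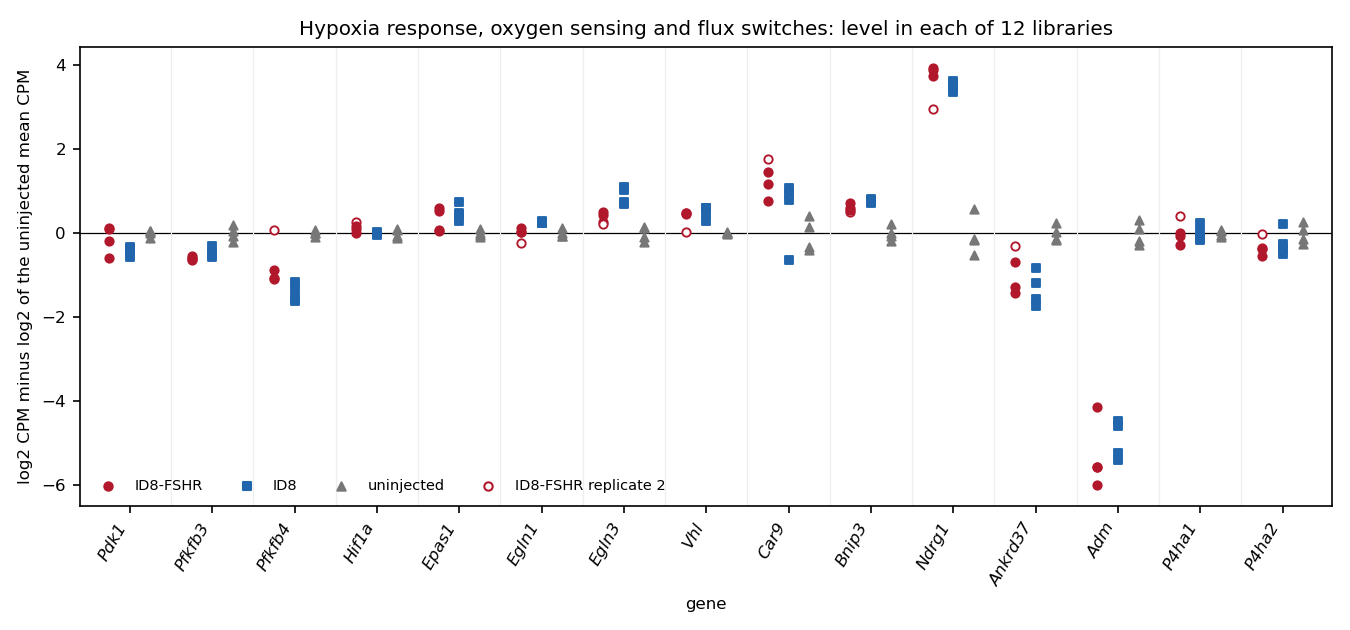
Level of the 15 genes of flux control, oxygen sensing and hypoxia response in each of the 12 libraries, as log2 CPM minus the log2 of the uninjected mean CPM, with 1 point per library and ID8-FSHR replicate 2 drawn open. Ndrg1 stands far above and Adm far below the uninjected libraries in both tumour groups, and Hif1a stays near 0 in all 3.

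Of the 5 oxygen sensing genes, 3 were higher in ID8-FSHR and 4 in ID8, with 0 lower. The Hif1a transcript, which encodes the most widely expressed HIF alpha subunit and is controlled mainly at the protein level, did not pass in any comparison. It stood at 184, 221, 206 and 196 CPM in ID8-FSHR, 181, 187, 183 and 179 CPM in ID8 and 174, 170.0, 192 and 198 CPM in uninjected lavages. The groups overlapped, and the log2 fold changes were 0.14 ± 0.07 (SE, edgeR adjusted p = 0.1) in ID8-FSHR and -0.01 ± 0.07 (SE, edgeR adjusted p = 0.945) in ID8. With ID8-FSHR replicate 1 or 2 left out, Hif1a was called higher in ID8-FSHR, at 0.18 and 0.19 (edgeR adjusted p = 0.0384 and 0.021). It was also called higher in ID8-FSHR by DESeq2 (0.18, adjusted p = 0.0125) and with median-of-ratios size factors in edgeR (0.18, adjusted p = 0.0252). With library totals it was called higher in both, at 0.33 in ID8-FSHR and 0.19 in ID8, where the median of all genes is 0.20 and 0.17.

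Epas1, the HIF alpha subunit found in fewer cell types, stood at 116, 80.03, 111 and 79.7 CPM in ID8-FSHR, 104, 93.3, 127 and 107 CPM in ID8 and 77.3, 82.5, 74.6 and 71.8 CPM in uninjected lavages. ID8 lay above the uninjected range, while ID8-FSHR replicates 2 and 4 lay within it. Its log2 fold changes were 0.34 ± 0.13 (SE, edgeR adjusted p = 0.0378) in ID8-FSHR and 0.50 ± 0.13 (SE, edgeR adjusted p = 0.00503) in ID8. The ID8-FSHR call was lost when ID8-FSHR replicate 1 or 3 or uninjected replicate 1, 3 or 4 was left out, with an adjusted p of up to 0.114 in edgeR, and under a filter of at least 1 CPM in 4 libraries (0.0551).

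The prolyl hydroxylase Egln3 (ENSMUSG00000035105.5, chromosome 12, 54178981 to 54203860, minus strand, 5 exons after merging) marks HIF alpha for destruction and is itself a known HIF target. Egln3 stood at 39.5, 37.9, 46.4 and 43.8 CPM in ID8-FSHR, 69.9, 53.3, 54.7 and 67.1 CPM in ID8 and 36.05, 35.8, 30.6 and 28.3 CPM in uninjected lavages. The 3 groups did not overlap, with ID8 highest. In log2 units the differences were 0.36 ± 0.11 (SE, edgeR adjusted p = 0.0135) in ID8-FSHR and 0.91 ± 0.11 (SE, edgeR adjusted p = 1.36e-05) in ID8 against uninjected, and -0.55 ± 0.11 (SE, edgeR adjusted p = 0.00851) for ID8-FSHR against ID8.

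Egln1, the main prolyl hydroxylase at normal oxygen, stood at 71.5, 59.5, 71.1 and 75.7 CPM in ID8-FSHR, 82.04, 82.9, 85.1 and 83.9 CPM in ID8 and 69.5, 76.5, 66.6 and 66.3 CPM in uninjected lavages. The ID8 libraries lay above both other groups. It was higher in ID8 at 0.26 ± 0.08 (SE, edgeR adjusted p = 0.00909) and lower in ID8-FSHR than in ID8 at -0.27 ± 0.08 (SE, edgeR adjusted p = 0.0408). Against uninjected mice its log2 fold change in ID8-FSHR was -0.01 ± 0.08 (SE, edgeR adjusted p = 0.951), and without ID8-FSHR replicate 2 it was 0.16 with an adjusted p of 0.0402 in edgeR. Vhl, the substrate-binding part of the ligase, was higher in both groups, at 25.7 ± 3.62 CPM in ID8-FSHR, 27.9 ± 2.68 CPM in ID8 and 19.8 ± 0.261 CPM in uninjected lavages, with log2 fold changes of 0.38 ± 0.10 (SE, edgeR adjusted p = 0.00621) and 0.49 ± 0.10 (SE, edgeR adjusted p = 0.00103). ID8-FSHR replicate 2 was the lowest of its group for Vhl, at 20.3 CPM.

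Of the 7 hypoxia response targets, 3 were higher and 2 lower in ID8-FSHR, and 2 were higher and 2 lower in ID8. Ndrg1 (ENSMUSG00000005125.13, chromosome 15, 66929318 to 66969640, minus strand, 16 exons after merging), a stress-induced protein and known hypoxia marker, stood at 103, 52.8, 91.1 and 99.7 CPM in ID8-FSHR, 80.9, 69.4, 76.2 and 83.8 CPM in ID8 and 6.14, 10.1, 4.73 and 5.99 CPM in uninjected lavages. All tumour libraries were above the uninjected ones, and ID8-FSHR replicate 2 was the lowest of them. The log2 fold changes were 3.68 ± 0.25 (SE, edgeR adjusted p = 5.74e-08) and 3.52 ± 0.25 (SE, edgeR adjusted p = 7.79e-08).

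Adm (ENSMUSG00000030790.15, chromosome 7, 110627661 to 110629820, plus strand, 4 exons after merging), which encodes the vasodilator peptide adrenomedullin, moved the other way. It stood at 0.854, 0.318, 0.321 and 0.237 CPM in ID8-FSHR, 0.681, 0.403, 0.358 and 0.630 CPM in ID8 and 12.4, 13.3, 16.1 and 18.7 CPM in uninjected lavages. Every tumour library was below 1 CPM, and every uninjected one was above 12 CPM. On the log2 scale the changes of -5.09 ± 0.37 (SE, edgeR adjusted p = 1.02e-07) and -4.84 ± 0.36 (SE, edgeR adjusted p = 1.32e-07) were the largest in size among the 34 genes.

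Ankrd37, an ankyrin repeat protein known as a HIF target, stood at 2.67, 5.25, 2.42 and 4.03 CPM in ID8-FSHR, 2.84, 3.67, 1.95 and 2.19 CPM in ID8 and 5.78, 5.92, 7.64 and 6.56 CPM in uninjected lavages. All tumour libraries were below the uninjected range. It fell by 0.85 on the log2 scale in ID8-FSHR (SE 0.26, edgeR adjusted p = 0.012) and by 1.28 in ID8 (SE 0.26, edgeR adjusted p = 0.000904).

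Car9, a cell-surface carbonic anhydrase widely used as a hypoxia marker, was scarce. It stood at 1.22, 2.45, 1.62 and 1.97 CPM in ID8-FSHR, 1.36, 1.25, 0.458 and 1.51 CPM in ID8 and 0.572, 0.793, 0.545 and 0.958 CPM in uninjected lavages. The ID8-FSHR libraries lay above the uninjected ones, and ID8 overlapped both. It was higher in ID8-FSHR at 1.34 ± 0.36 (SE, edgeR adjusted p = 0.00607) and did not pass in ID8 at 0.68 ± 0.36 (SE, edgeR adjusted p = 0.122). In ID8 it was called higher without ID8 replicate 3 and with library totals (edgeR adjusted p = 0.0167 and 0.0499).

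Bnip3, a receptor for the removal of mitochondria, was higher in both groups, at 12.8 ± 0.889 CPM in ID8-FSHR, 14.4 ± 0.470 CPM in ID8 and 8.47 ± 0.989 CPM in uninjected lavages, with log2 fold changes of 0.60 ± 0.10 (SE, edgeR adjusted p = 0.000163) and 0.77 ± 0.10 (SE, edgeR adjusted p = 1.92e-05). The catalytic subunits of collagen prolyl 4-hydroxylase did not pass in any comparison. P4ha1 averaged 80.5 ± 16.7, 79.3 ± 10.3 and 78.6 ± 4.03 CPM and P4ha2 17.99 ± 2.81, 19.5 ± 4.64 and 22.4 ± 3.56 CPM in ID8-FSHR, ID8 and uninjected lavages. Against uninjected, P4ha2 was called lower in ID8 without ID8 replicate 2, at -0.37 (edgeR adjusted p = 0.0443). It was called lower in ID8-FSHR with the replicate number as a block, at -0.32 (edgeR adjusted p = 0.0152).

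The upstream stretches of Egln3, Adm and Ankrd37 are shown because these known hypoxia-responsive genes went opposite ways, with the same limits and capitals as above.
Egln3, chr12:54203845-54204124, minus strand: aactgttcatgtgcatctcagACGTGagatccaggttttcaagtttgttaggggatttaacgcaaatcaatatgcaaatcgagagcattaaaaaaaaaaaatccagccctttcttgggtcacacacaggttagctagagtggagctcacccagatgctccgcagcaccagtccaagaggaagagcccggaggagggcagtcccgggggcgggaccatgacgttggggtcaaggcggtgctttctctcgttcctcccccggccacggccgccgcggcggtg
Adm, chr7:110627407-110627686, plus strand: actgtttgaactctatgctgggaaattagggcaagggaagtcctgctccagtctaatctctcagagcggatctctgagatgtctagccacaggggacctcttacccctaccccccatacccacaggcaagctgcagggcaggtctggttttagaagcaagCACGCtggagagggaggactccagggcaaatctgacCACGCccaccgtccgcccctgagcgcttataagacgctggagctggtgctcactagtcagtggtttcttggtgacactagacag
Ankrd37, chr8:45999821-46000100, minus strand: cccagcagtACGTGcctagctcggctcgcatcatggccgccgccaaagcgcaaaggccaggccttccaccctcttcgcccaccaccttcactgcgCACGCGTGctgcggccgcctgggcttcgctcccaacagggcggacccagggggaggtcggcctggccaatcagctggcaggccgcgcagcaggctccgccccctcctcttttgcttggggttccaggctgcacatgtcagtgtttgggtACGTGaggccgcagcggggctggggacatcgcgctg
The Ankrd37 stretch held 4 matches, the Adm stretch 2 and the Egln3 stretch 1, so genes that fell and genes that rose both carried the letters. Over the whole RefSeq windows, which run to 50 bases after the start, 29 of the 32 members with a window held a match (90.6%). The same letters stood in 46.7% of 27025 genes with a window and in 64.4% of the 11660 of them that were tested here. No match stood in the windows of Vhl, Tpi1 and Gpi1, and Epas1 and Ndrg1 had no window. A match is a run of letters and not a site in use.

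Between ID8-FSHR and ID8, 3 pathway genes were higher and 0 lower, and of the other members 1 was higher and 2 were lower. The median log2 fold change was 0.38 over the 19 pathway genes, where Tpi1, Pgk1 and Pkm passed, and -0.12 over the other 15, where Pfkfb4 passed as higher and Egln1 and Egln3 as lower. The 28 genes that did not pass include some with larger estimates than those that did, such as Aldoc at 1.02 ± 0.36 (SE, edgeR adjusted p = 0.0806) and Slc16a3 at 0.68 ± 0.34 (SE, edgeR adjusted p = 0.204). Ldha differed by 0.42 ± 0.17 (SE, edgeR adjusted p = 0.118), Gapdh by 0.45 ± 0.14 (SE, edgeR adjusted p = 0.0579), Slc2a1 by 0.38 ± 0.17 (SE, edgeR adjusted p = 0.16), Epas1 by -0.16 ± 0.13 (SE, edgeR adjusted p = 0.457) and Hif1a by 0.14 ± 0.07 (SE, edgeR adjusted p = 0.195). Gapdh was called higher by DESeq2 (adjusted p = 0.0166) and with library totals (edgeR adjusted p = 0.0447). It was also called without ID8-FSHR replicate 1 or ID8 replicate 2 (edgeR adjusted p = 0.0218 and 0.0331). Ldha and Slc2a1 were called higher without ID8-FSHR replicate 1.

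Of the 6 calls, only that of Egln3 held in all 12 fits with 1 library left out, with log2 fold changes of -0.61 to -0.48 and adjusted p of 0.00729 to 0.0348 in edgeR. The adjusted p reached 0.138 for Tpi1, 0.103 for Pgk1, 0.0784 for Pkm, 0.13 for Pfkfb4 and 0.103 for Egln1, in each case without ID8 replicate 3. Without ID8-FSHR replicate 2 the log2 fold change of Pfkfb4 was 0.41, and with library totals the call of Egln1 was lost (edgeR adjusted p = 0.0767). With ID8-FSHR replicate 4 or ID8 replicate 1, 3 or 4 left out, no member was called higher, and with ID8-FSHR replicate 1 left out, 14 were. Over all genes tested, the same fits called 636, 709, 569 and 555 higher, in that order. Without ID8-FSHR replicate 1 they called 1731 of 17270 higher, against 1021 of 16915 in the fit of all 12 libraries.

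**Figure D4:**
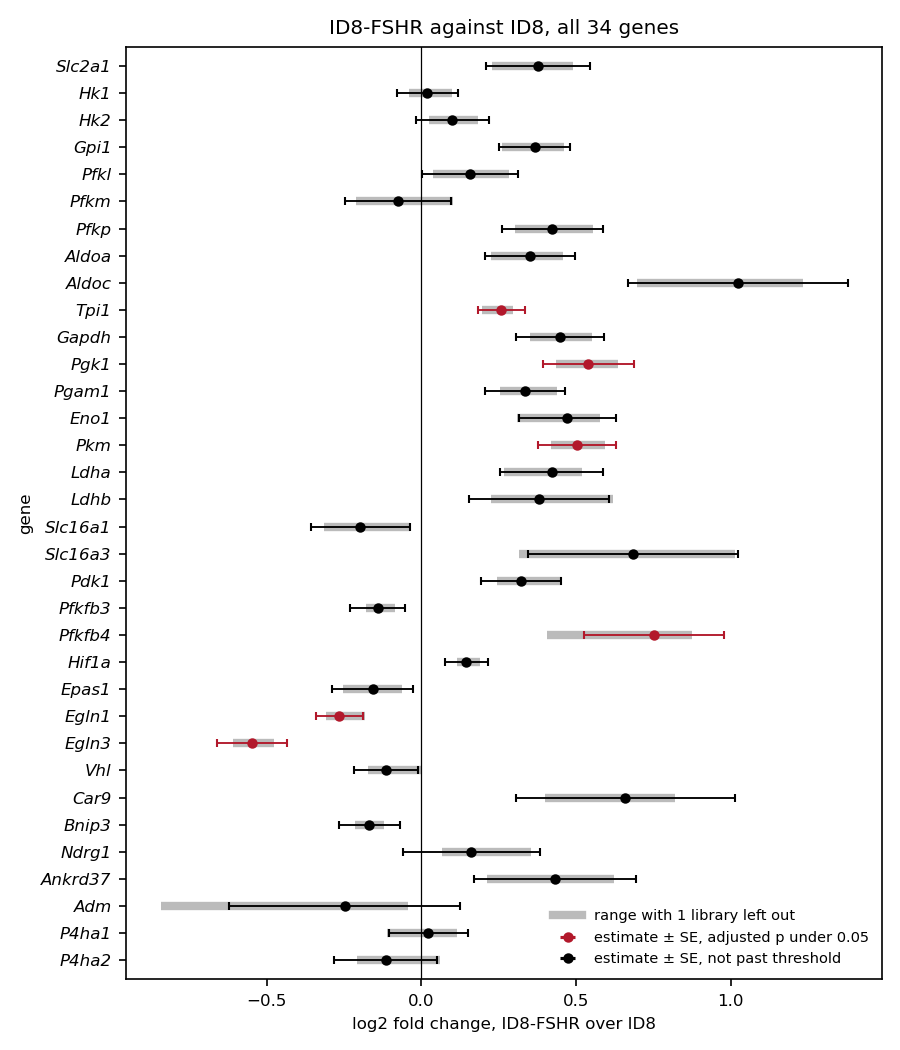
Log2 fold change of ID8-FSHR over ID8 for all 34 genes with its SE, from the edgeR fit of 12 libraries, red where the adjusted p is under 0.05, and in grey the range over the 12 fits with 1 library left out. Most genes of the pathway lie to the right of 0, and Egln3 has the largest drop among the called genes.

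Single libraries carried part of the spread. ID8-FSHR replicate 2 was the highest of the 8 tumour libraries for 19 of the 34 members (55.9%, against 23.9% of all genes tested) and the lowest for 8 (23.5%, against 26.1%). It was highest for 13 of the 19 pathway genes and lowest for 3, which were Pfkm, Ldhb and Slc16a1. Among the other 15 it was highest for 6 and lowest for 5, namely Egln1, Egln3, Vhl, Bnip3 and Ndrg1. ID8 replicate 3 was the lowest for 16 members (47.1%, against 17.5% of all genes), 14 of them in the pathway. Without ID8-FSHR replicate 2, 22 members were higher and 4 lower than in uninjected lavages, among them all 20 and all 4 called with it. Over all 17377 genes tested in that fit, 6475 were called higher and 4691 lower.

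Marker genes of other cells moved with the groups. Of the 10 mesothelial and ID8 tumour markers, 8 were higher in ID8-FSHR and 9 in ID8 than in uninjected lavages, and 5 were lower in ID8-FSHR than in ID8. None of them was at 0 in any library. Summed, they stood at 5275, 1776, 4434 and 3611 CPM in ID8-FSHR, so the library with the lowest Ldhb, Pfkm, Slc16a1 and Ndrg1 of the tumour libraries was also the lowest for these markers. The group means of these sums were 3774 CPM in ID8-FSHR and 7250 CPM in ID8. The log2 fold changes of ID8-FSHR against ID8 were 0.38 for Ldhb, 0.16 for Ndrg1, -0.08 for Pfkm and -0.20 for Slc16a1, and none passed. ID8-FSHR replicate 2, highest for 13 of the 19 pathway genes, had the highest monocyte marker sum of the tumour libraries (1167 CPM, against 379 to 726 CPM in the other 7). Its sums for T cell markers (92.8 CPM, against 29.5 to 76.7 CPM) and B cell markers (499.8 CPM, against 282 to 465 CPM) were also the highest. Of the 10 macrophage markers 9 were lower and 1 higher in each tumour group than in uninjected lavages, and 2 were lower in ID8-FSHR than in ID8.

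All 6 markers of dividing cells were higher in both tumour groups than in uninjected lavages and higher in ID8-FSHR than in ID8, with sums of 994 to 1477 CPM in ID8-FSHR, 298 to 451 CPM in ID8 and 112 to 189 CPM in uninjected lavages. All 7 B cell markers were lower in both tumour groups, with sums of 282 to 499.8, 327 to 465 and 2552 to 3323 CPM. The monocyte sums were 379 to 1167, 451 to 498 and 1025 to 1404 CPM (6 genes), the T cell sums 40.7 to 92.8, 29.5 to 31.7 and 32.1 to 100.1 CPM (6 genes) and the mast cell sums 548 to 856, 769.6 to 964 and 863 to 1368 CPM (6 genes). Neutrophil markers (8 genes) summed to 12.96 to 50.3, 11.99 to 73.9 and 5.47 to 54.8 CPM, with Ly6g at 0 in 2 and Camp at 0 in 3 uninjected libraries. Red blood cell markers (6 genes) varied within every group, at 2.65 to 376, 1.09 to 218 and 0.710 to 87.6 CPM. In ID8-FSHR against uninjected, 2 monocyte markers were higher and 2 lower, 0 T cell markers passed, 1 mast cell marker was higher and 4 lower, and 1 neutrophil marker was higher. In ID8 against uninjected, 4 monocyte and 5 T cell markers were lower, 1 mast cell marker was higher and 3 lower, and 1 neutrophil marker was higher. Between ID8-FSHR and ID8, 2 monocyte markers were higher and 1 lower, 2 T cell markers were higher and 1 mast cell marker was lower. No red blood cell marker passed in these edgeR tests. The part of these cell types in the results above was not tested.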

How the data were processed

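RNA from peritoneal lavage cells was, per the labels' protocols, depleted of ribosomal RNA and sequenced. The deposited values are whole-number read counts per gene that the authors did not normalize, as far as the labels and values show. Per the submitters' processing notes, bcl2fastq 2.20, STAR 2.7.9a and featureCounts (Subread 1.6.4) were used on GRCm38.p6. Not given in the sources used here are the strand setting, the handling of reads with several map positions and the release of the annotation, so genes that overlap others are uncertain. Of 2 rows with the symbol Aldoa, the one named ENSMUSG00000030695.16 was used.

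Groups came from the labels. Counts of all 12 libraries were fitted with edgeR 4.0.16 in R 4.3.3 (TMM scaling, default filter on low counts, robust quasi-likelihood F test, group only, Benjamini-Hochberg over 16915 genes). The procedure was also run on simulated counts with the same spread for all genes and libraries. That run does not test it for the unequal spread of these libraries. CPM are counts on a per-million-reads scale of effective library size, and the depth sets a limit of 3 counts at 0.0444 to 0.0653 CPM, which covers counting error only. Levels per kb used the principal transcript of GENCODE models of GRCm38. Ratios of isozymes, log2 of CPM plus 0.5, were compared with two-sided exact permutation tests over libraries. Upstream sequences came from RefSeq on GRCm38.p6, with a window for 32 of 34 members. No pair of replicates agreed within sampling noise.

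Values in every library are given for the 8 called members with the largest change in a comparison at a mean of at least 1 CPM, and for Hif1a, Epas1, Slc2a1, Ldha, Ldhb and Gapdh. From each further list, up to 3 genes with the smallest adjusted p are named. The members and all lists were chosen with earlier results of these data known. Alternatives were DESeq2 1.42.0, limma-voom (limma 3.58.1), other scalings, filters and thresholds, a fit of only the groups compared, copies summed with members, a replicate block and leaving out each library, and, added after seeing the data, isozyme shares by the length of all exons merged.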

Additional observations from a re-analysis of the deposited data

Results flagged for a closer look

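Among the 102 groups of 4 libraries examined (34 genes in 3 groups), 4 held a library far from the other 3, judged by its gap to the nearest divided by the range of the group; chance alone flags about 1 group in 20. Hk2 in uninjected replicate 1 stood at 56.9 CPM, against 45.03 to 46.6 CPM in the other 3 (gap over range 0.865). Pfkfb4 in ID8-FSHR replicate 2 stood at 29.3 CPM, against 12.9 to 14.97 CPM (0.874). Vhl in ID8-FSHR replicate 2 stood at 20.3 CPM, against 27.1 to 27.8 CPM (0.913). Adm in ID8-FSHR replicate 1 stood at 0.854 CPM, against 0.237 to 0.321 CPM (0.865).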

How the results depend on the processing

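Over 2346 fits of 1 member under 1 alternative, 140 changed a call and 35 changed the sign of a fold change. Members called higher and lower against uninjected mice stayed within 1.5 times the main counts except at a tested fold of 1.5, with 8 and 1 in ID8-FSHR and 9 and 3 in ID8, and at adjusted p under 0.01, with 2 lower in ID8-FSHR. At a tested fold of 1.5, 3482 of all genes were higher and 2226 lower in ID8-FSHR, and 3484 and 2261 in ID8. No count over all genes was made at adjusted p under 0.01. With 1 library left out, 18 to 22 were higher and 3 to 4 lower in ID8-FSHR, and 14 to 17 and 6 to 7 in ID8. Over all genes these fits called 5468 to 6475 higher and 4691 to 5171 lower in ID8-FSHR. In ID8 they called 5270 to 6292 higher and 4771 to 5418 lower. Between ID8-FSHR and ID8 the counts of 4 higher and 2 lower depended on more settings. DESeq2 called 8 higher, no filter gave 1 higher and 1 lower, a fit of only the groups compared 0 and 1, a fold of 1.5 0 and 0, adjusted p under 0.01 0 and 1, and library totals 1 lower. Over all genes, DESeq2 called 1540 higher, no filter gave 771 higher and 645 lower, and only the groups compared 746 and 604. A fold of 1.5 gave 211 and 72 over all genes, and library totals 742 lower. With 1 library left out the member counts ran from 0 to 14 higher and from 1 to 2 lower. The counts over all genes then ran from 555 to 1731 higher and from 406 to 1405 lower. The cause was not tested, beyond the fewer libraries or stricter threshold that such a setting has by construction.

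Egln1 in ID8-FSHR against uninjected turned to 0.16 without ID8-FSHR replicate 2, in a range of -0.045 to 0.16 over the fits with 1 library left out, and Hif1a in ID8 against uninjected turned to 0.19 with library totals (edgeR adjusted p = 0.0174). With library totals the summed glycolysis level averaged 5715 CPM in ID8-FSHR, 4409 CPM in ID8 and 3407 CPM in uninjected lavages. By the length of all exons merged, Ldhb made up 39.9% of the pair in ID8-FSHR, 40.6% in ID8 and 6.19% in uninjected lavages, Pfkm 31.6%, 35.6% and 10.7% of its family, and Hk2 32.3%, 31.1% and 27.3% of its pair, in the same order. The deviations from the group means of libraries with the same replicate number correlated at -0.22 to 0.35, and 2 of 12 pairs were over 0.1. Pairs with different numbers correlated at -0.33 to 0.33, and 4 of 36 were over 0.1. The highest of all, 0.35, was between ID8 replicate 2 and ID8-FSHR replicate 2. Whether the number stands for a shared batch is not given. ID8-FSHR replicates 3 and 4 carry higher numbers in their titles than in the labels, and these correlations and the block follow the labels. With the replicate number as a block, 20 members were higher and 5 lower in ID8-FSHR and 14 and 7 in ID8 against uninjected, and 4 were higher and 1 lower in ID8-FSHR against ID8. Over all genes the block gave 5574 and 5092, 5404 and 5177, and 860 and 916, in the same order.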

Other observations

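Further genes of the same metabolism, from lists that hold none of the 34, changed in both directions. Of 14 tested further glycolysis genes, 3 were higher and 3 lower in ID8-FSHR, and 5 higher and 3 lower in ID8, than in uninjected lavages (edgeR adjusted p under 0.05). Slc16a7, another monocarboxylate carrier, fell to 27.7 ± 5.83 CPM in ID8-FSHR and 31.1 ± 3.88 CPM in ID8, against 86.99 ± 6.53 CPM in uninjected lavages, with log2 fold changes of -1.65 ± 0.14 (SE, edgeR adjusted p = 4.13e-07) and -1.48 ± 0.14 (SE, edgeR adjusted p = 1.03e-06). Pfkfb2 was lower as well, at -0.69 and -0.65 on the log2 scale, and the hexokinase-like gene Hkdc1 was higher, at 1.39 ± 0.289 and 1.21 ± 0.463 CPM in ID8-FSHR and ID8, against 0.0109 ± 0.0218 CPM in uninjected lavages, which is under the limit of 3 counts per library. Between ID8-FSHR and ID8, Pfkfb1 was higher, at 0.86 ± 0.24 (SE, edgeR adjusted p = 0.0371), and Eno2, the neuronal enolase, was lower, at -1.34 ± 0.37 (SE, edgeR adjusted p = 0.0358).

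Of 12 genes of pyruvate uptake into mitochondria or its use by pyruvate dehydrogenase, 6 were higher and 1 lower in ID8-FSHR, and 5 and 1 in ID8. Pdk3, an inhibitory kinase of pyruvate dehydrogenase like Pdk1, rose to 44.6 ± 2.75 CPM in ID8-FSHR and 40.1 ± 2.07 CPM in ID8, against 21.8 ± 0.683 CPM in uninjected lavages, with log2 fold changes of 1.03 ± 0.07 (SE, edgeR adjusted p = 3.3e-08) and 0.88 ± 0.07 (SE, edgeR adjusted p = 1.26e-07). Dld, a subunit of the dehydrogenase complex, had log2 fold changes of 0.46 in ID8-FSHR and 0.41 in ID8 and was higher in both, Mpc1, part of the mitochondrial pyruvate carrier, was higher at 0.53 in ID8-FSHR and 0.47 in ID8, and Pdp2 was lower at -0.78 and -0.86. Pdk2 was lower in ID8-FSHR than in ID8, at -0.49 ± 0.12 (SE, edgeR adjusted p = 0.0231), and was the 1 of 12 that passed there.

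Of 8 pentose phosphate genes, 2 were higher and 3 lower in ID8-FSHR and 0 and 3 in ID8, with 0 called between the tumour groups by the edgeR test. Pgls was lower in both, at -0.74 in ID8-FSHR and -0.76 in ID8, as was H6pd at -0.48 and -0.56. Rpia was lower in both too, at -0.55 and -0.91. Taldo1 was higher in ID8-FSHR at 0.45 and did not pass in ID8, at 0.24 ± 0.11 (SE, edgeR adjusted p = 0.0687). Of 3 tested gluconeogenesis genes, pyruvate carboxylase Pcx was higher in both, at 2.16 and 2.30, and Pck2 was higher in ID8-FSHR at 0.37 and did not pass in ID8, at 0.22 ± 0.12 (SE, edgeR adjusted p = 0.117).

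Of 10 further oxygen sensing genes, 6 were higher and 2 lower in ID8-FSHR, and 7 and 1 in ID8. Eloc and Rbx1, partners of Vhl in its ubiquitin ligase, averaged 114 ± 19.4 and 73.4 ± 8.48 CPM in ID8-FSHR and 113 ± 8.52 and 72.2 ± 2.36 CPM in ID8, against 43.6 ± 3.30 and 39.3 ± 1.88 CPM in uninjected lavages, with log2 fold changes of 1.39 and 0.90 in ID8-FSHR and 1.37 and 0.88 in ID8. Hif3a was higher at 3.15 and 3.89. Cited2, known to hold back HIF by competing for its coactivator, stood at 51.2, 41.2, 47.2 and 50.5 CPM in ID8-FSHR, 68.2, 66.5, 67.2 and 73.5 CPM in ID8 and 33.2, 35.02, 39.9 and 36.4 CPM in uninjected lavages. The 3 groups did not overlap, ID8 was highest, and ID8-FSHR was lower than ID8, at -0.53 ± 0.08 (SE, edgeR adjusted p = 0.00112).

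Of 26 tested further hypoxia response genes, 14 were higher and 8 lower in ID8-FSHR, and 11 and 7 in ID8. Pfkfb2 stands in this list and in that of further glycolysis genes and is counted among the lower genes of both. Vegfa, named in the label of both lines and so no independent readout, averaged 62.2 ± 18.2 and 52.3 ± 4.72 CPM in ID8-FSHR and ID8, against 1.94 ± 0.411 CPM in uninjected lavages. Car12 was higher at 3.10 in ID8-FSHR and 3.68 in ID8, Vldlr at 4.81 and 4.90, and Loxl2 at 4.80 and 5.20. Between the tumour groups 1 was higher, the transferrin receptor Tfrc at 0.86 ± 0.14 (SE, edgeR adjusted p = 0.0018), with 59.7, 68.8, 52.8 and 67.4 CPM in ID8-FSHR and 39.2, 36.6, 25.8 and 35.9 CPM in ID8. Of the 4 that were lower, Insig2 stood at -0.68 ± 0.18 (SE, edgeR adjusted p = 0.034) and Kdm4b at -0.25 ± 0.07 (SE, edgeR adjusted p = 0.0371).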
